A study of Mus musculus with 33 samples.

Results

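Glutathione S-transferases were followed as 10 genes in mouse liver: the alpha-class genes Gsta2, Gsta3 and Gsta4, the mu-class genes Gstm1, Gstm2, Gstm3 and Gstm4, the pi-class gene Gstp1, and the theta-class genes Gstt1 and Gstt2. They were chosen by name, as the 10 of 18193 genes with a probe set of their own on the array that carry these symbols. They have 15 of the 45037 probe sets other than control spots, and 14 of the 15, covering all 10 genes, passed the filter on dim probe sets. RNA came from whole livers of 33 male C57BL/6J mice aged 17 weeks, with 1 Affymetrix array per mouse. For 2 weeks, 12 mice ate the control diet with fenofibrate at 0.03% by weight, 11 ate a diet with 7% of energy from a fish oil of 23.1% eicosapentaenoic acid (EPA) and 21.1% docosahexaenoic acid (DHA), and 10 ate the control diet with high-oleic sunflower oil at 7% of energy. The oil of the control and fenofibrate diets held 81.3% oleic acid. All mice had been fasted for 6 hours and were housed in pairs, and which mice shared a cage is not given in the sources used here, so an effect of the cage on the p-values was not tested. Fenofibrate, a fibrate used against high blood lipids, acts through the nuclear receptor PPARα, and fish oil supplies long-chain n-3 fatty acids that can bind the same receptor.

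Glutathione S-transferases join the tripeptide glutathione to reactive compounds, which makes them more soluble and ready for export. Cytosolic forms fall into classes with different preferred substrates, and liver is among the tissues richest in them. Many of their genes lie in clusters, and rodent forms are known to respond to the factor NRF2 and to the nuclear receptors CAR and PXR.

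Livers of fenofibrate-fed mice held more Gsta2, Gstm4 and Gstt2 mRNA than control livers, each by more than 2-fold, and less Gstm2 and Gstp1 mRNA. Fish oil livers also held more Gsta2 mRNA, by 3.05-fold, and less Gstm2 mRNA, by 2.31-fold. Set against each other, the diets differed most at Gstm4, Gstt2 and Gstm2, all higher under fenofibrate, and at Gstp1, which was lower under fenofibrate. Both diets were set against the same 10 control arrays, so the 2 comparisons with control are not independent. In whole-liver RNA, fewer cells of a type and less RNA per cell cannot be told apart.

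With fenofibrate against control, 5 of the 10 genes rose, 2 fell and 3 did not pass an adjusted p of 0.05 (limma, Benjamini-Hochberg over 17162 probe sets). Over 9005 genes with 1 probe set each, 39.8% passed in either direction, 21.5% higher and 18.3% lower. The median log2 difference of the 10 was 0.16, beside 0.00 over all probe sets. With fish oil against control, 3 rose, 2 fell and 5 did not pass, while 13.3% of all genes passed, 6.97% higher and 6.36% lower. The median of the 10 was 0.22 in that comparison, beside 0.02 over all probe sets. With fenofibrate against fish oil, 4 rose, 1 fell and 5 did not pass, while 37.9% of all genes passed, 19.4% higher and 18.5% lower. The median was 0.23, beside -0.02 over all probe sets. The share of the 10 that passed was thus above that of all genes with each diet against control, a description with no test. Counted over the 14 member probe sets, 7 rose and 2 fell with fenofibrate against control, beside 36.6% of all probe sets called, 19.6% higher and 17.0% lower. With fish oil against control 5 rose and 2 fell, beside 11.6% called, 6.23% higher and 5.34% lower. Between fenofibrate and fish oil 5 rose and 1 fell, beside 34.5% called, 17.4% higher and 17.1% lower. Several probe sets of a gene are not replicates.

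Array medians over all probe sets lay between 2.90 and 2.97 on the log2 scale. Arrays of 1 group correlated at 0.970 to 0.995 over the probe sets past the filter. Hepatocyte markers were measured for 10 of 10 genes, and 8 of them fell with fenofibrate against control and 2 with fish oil against control. Their summed level, as log2 of the summed linear values, ran from 17.45 to 17.57 in fenofibrate arrays, 17.56 to 17.68 in fish oil arrays and 17.60 to 17.72 in control arrays. Of 10 pericentral hepatocyte markers, 5 fell with fenofibrate and 3 with fish oil, with summed levels of 15.52 to 15.77 in fenofibrate arrays, 15.72 to 15.97 in fish oil arrays and 15.84 to 16.03 in control arrays. Of 10 Kupffer cell markers, 2 fell with fenofibrate, and of 10 sinusoidal endothelial markers 4 fell and 1 rose with fenofibrate. Of 8 periportal hepatocyte markers 3 fell and 1 rose, and of 8 stellate cell markers 4 fell and 1 rose, among them Col3a1, which rose by 0.75. Of 3 measured adipocyte markers, Fabp4 rose by 1.28 and Car3 fell by 0.56 with fenofibrate, while Adipoq, Plin1 and Lep were not measured past the filter. The third, Cidec, passed the filter through the fenofibrate group, where it ran from 6.96 to 9.72. Cidec ran from 3.05 to 4.12 in fish oil arrays and from 3.04 to 8.98 in control arrays, and no difference is given for it. Of 2 measured blood cell markers, Alas2 fell by 1.04 and Bpgm rose by 0.40 with fenofibrate. The 1 measured lymphocyte marker, Ighm, rose by 0.67 with fenofibrate. Summed levels in fenofibrate, fish oil and control arrays were 12.38 to 12.65, 12.60 to 12.88 and 12.69 to 12.89 for stellate cells, and 13.13 to 14.13, 14.12 to 14.48 and 13.73 to 14.44 for adipocytes. Bile duct markers passed the filter for only 2 of 8 genes. Sox9 did not pass, at -0.18 with fenofibrate and -0.04 with fish oil. Krt7, Krt19 and Epcam stayed below the filter or had no probe set of their own. Krt23 ran from 8.50 to 9.90 in fenofibrate arrays, from 4.37 to 8.43 in fish oil arrays and from 3.00 to 4.32 in control arrays. It passed the filter through the fenofibrate and fish oil groups, and no difference is given for it. Over all genes, 21.5% were higher and 18.3% lower with fenofibrate, and 6.97% higher and 6.36% lower with fish oil. The part of the marker shifts in the transferase results was not tested. The 3 control arrays of replicates 1, 2 and 9 were set against the medians of the remaining control arrays over the 10 genes. Replicates 1 and 2 lay below these medians by 0.44 and 0.62 at the median gene, and replicate 9 lay 0.19 above. Replicate 10, itself part of the reference, lay 0.12 above, so replicate 9 was little apart from it. Control replicate 2 was the lowest control array for 12 of the 14 probe sets. Without these 3 arrays, 4 genes rose and 2 fell with fenofibrate, and 2 rose and 4 fell with fish oil. In that setting 37.8% and 13.1% of all probe sets passed in either direction.

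**Figure D1:**
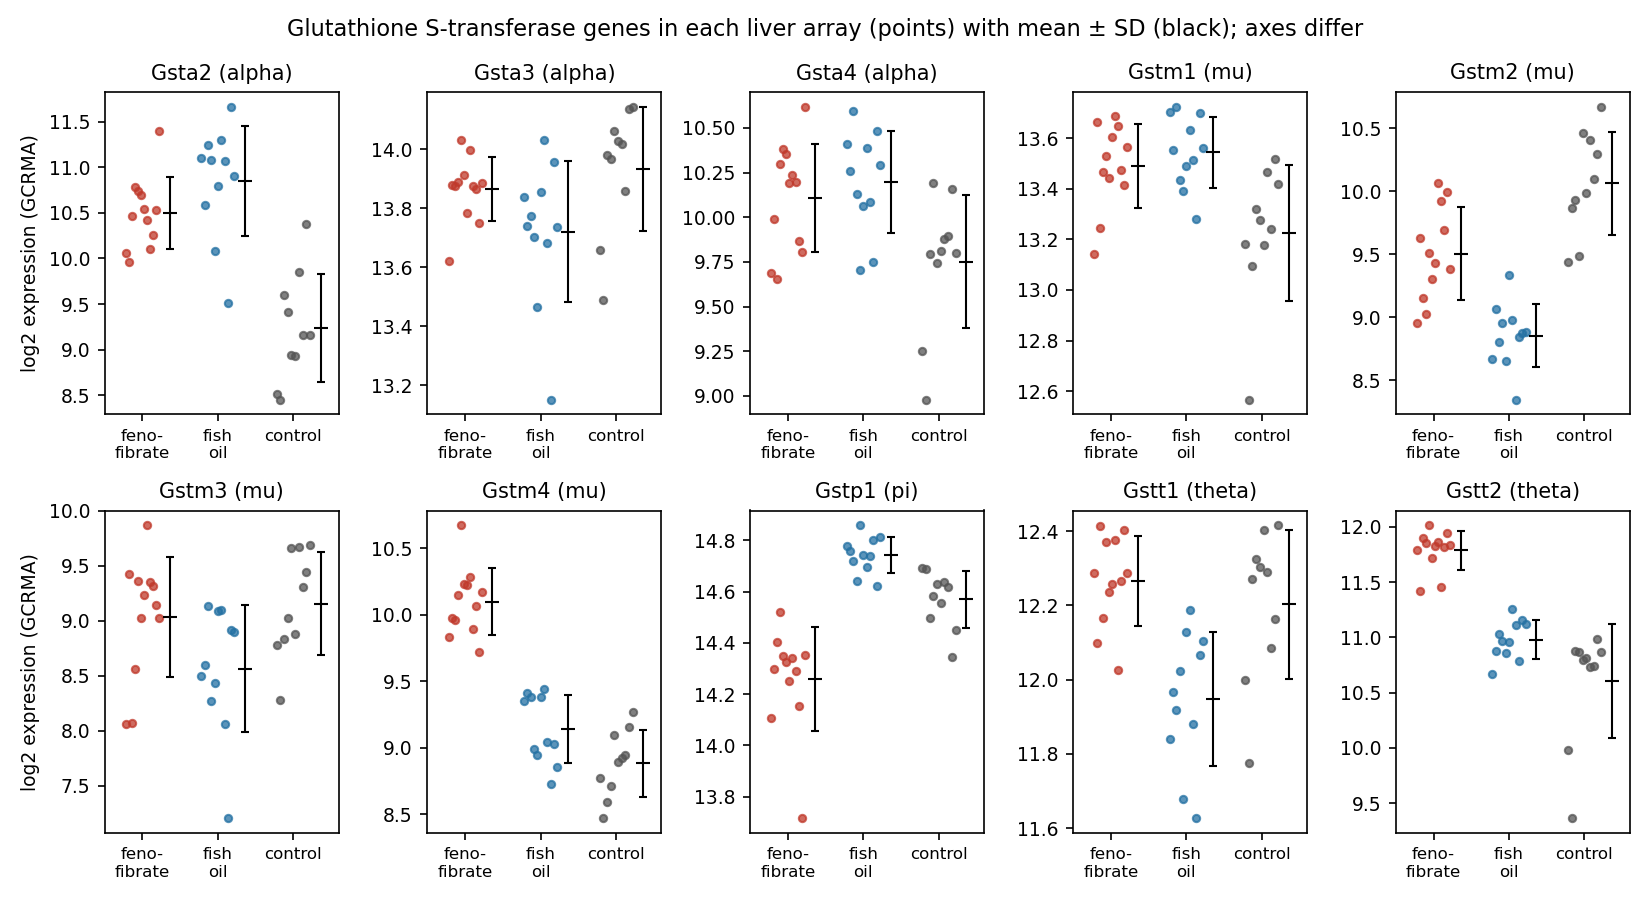
Log2 expression of the 10 transferase genes in each of the 33 liver arrays, with 1 panel per gene and its own vertical axis; points are arrays of the fenofibrate (12), fish oil (11) and control (10) groups, and black bars are the mean ± SD. For Gstm4 and Gstt2 all 12 fenofibrate points lie above all points of the other groups, and for Gstm2 all 11 fish oil points lie below all control points.

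Upstream sequence of 8 of the 10 genes was found in RefSeq's table for the mouse assembly GRCm38.p6. The 250 bases before the start of 5 genes are shown, 3 because their mRNA differed between groups without overlap or by the most in their class (Gsta2, Gstm2 and Gstm4) and 2 because a searched motif was found in them (Gsta3 and Gstp1). Gsta2 is at chr9:78347146-78347395 on the minus strand, Gsta3 at chr1:21240335-21240584 on the plus strand, Gstm2 at chr3:107986421-107986670 on the minus strand, Gstm4 at chr3:108044857-108045106 on the minus strand and Gstp1 at chr19:4037913-4038162 on the minus strand. Each reads 5′ to 3′ towards the gene, and capitals mark a motif match.
Gsta2: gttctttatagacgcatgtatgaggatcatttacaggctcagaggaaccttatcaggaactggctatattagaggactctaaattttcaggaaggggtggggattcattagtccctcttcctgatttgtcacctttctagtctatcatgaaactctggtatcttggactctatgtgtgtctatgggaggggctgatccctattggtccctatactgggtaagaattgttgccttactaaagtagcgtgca
Gsta3: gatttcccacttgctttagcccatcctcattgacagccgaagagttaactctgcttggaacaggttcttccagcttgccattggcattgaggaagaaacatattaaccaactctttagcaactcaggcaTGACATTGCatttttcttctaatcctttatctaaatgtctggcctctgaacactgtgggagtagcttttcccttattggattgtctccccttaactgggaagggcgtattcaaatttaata
Gstm2: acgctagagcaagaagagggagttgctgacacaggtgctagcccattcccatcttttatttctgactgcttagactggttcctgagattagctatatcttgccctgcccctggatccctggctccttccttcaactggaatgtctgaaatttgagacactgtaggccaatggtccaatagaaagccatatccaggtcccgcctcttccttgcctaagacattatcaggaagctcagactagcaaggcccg
Gstm4: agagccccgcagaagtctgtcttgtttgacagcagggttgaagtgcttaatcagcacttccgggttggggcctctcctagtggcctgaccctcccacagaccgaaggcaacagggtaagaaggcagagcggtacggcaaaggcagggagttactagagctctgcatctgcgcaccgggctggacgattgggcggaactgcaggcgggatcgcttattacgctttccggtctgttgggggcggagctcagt
Gstp1: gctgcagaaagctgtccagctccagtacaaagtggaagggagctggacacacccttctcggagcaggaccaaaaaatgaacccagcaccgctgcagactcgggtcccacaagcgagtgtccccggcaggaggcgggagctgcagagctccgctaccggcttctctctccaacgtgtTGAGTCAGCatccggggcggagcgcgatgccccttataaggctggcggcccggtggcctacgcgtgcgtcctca

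The antioxidant response element core TGACNNNGC, bound by NRF2, occurred on either strand in 12.4% of 32817 promoter windows of 300 bases. Among the 8 genes it was found once, in Gsta3, as TGACATTGC at base -121 on the gene's strand. The direct-repeat element of AGGNCA, N and AGGNCA, a form bound by PPARα with its partner RXR, occurred in 0.381% of windows and in none of those of the 8 genes. The site TGANTCAGC, an AP-1-like element, was chosen after the Gstp1 sequence had been seen; it occurred in 1.19% of windows and was found in Gstp1 as TGAGTCAGC at base -74. These letters describe the windows only, and the arrays hold no measurement of factor binding. Whether NRF2 binds sites of other spellings, that of Gstp1 among them, was not tested.

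Within the alpha class, 2 of 3 genes rose with each diet against control, Gsta2 and Gsta4, and Gsta3 did not pass. Gsta2 encodes a subunit with peroxidase activity towards lipid hydroperoxides. In fenofibrate arrays its log2 level had a lowest value of 9.96, a median of 10.50 and a highest of 11.40. Fish oil arrays ran from 9.51 through a median of 11.06 to 11.66, and control arrays from 8.45 through 9.16 to 10.38. Thus 8 of 12 fenofibrate arrays and 9 of 11 fish oil arrays lay above every control array, although the ranges overlapped, and the highest control value was that of control replicate 9, which also had the highest Cyp2b9 and the lowest Hsd3b5 and Slco1a1 level of the control group. Control replicate 9 also had the highest control levels of Gstk1 (11.97) and Mgst3 (8.76). Fenofibrate arrays ran from 11.82 to 12.29 for Gstk1 and from 8.40 to 9.07 for Mgst3. For Gstm4 and Gstt2 control replicate 9 stood at 9.15 and 10.99, below the lowest fenofibrate arrays at 9.72 and 11.42. Krt23, a keratin gene, was at least 8.50 in every fenofibrate array and at most 4.32 in every control array. What set control replicate 9 apart was not tested. Gsta2 means were 10.50 ± 0.39 with fenofibrate (SD, n = 12), 10.85 ± 0.60 with fish oil (n = 11) and 9.24 ± 0.59 in controls (n = 10). The log2 difference was 1.26 ± 0.22 (SE) for fenofibrate against control, a 2.39-fold rise (limma adjusted p = 2.50e-05). For fish oil against control it was 1.61 ± 0.22, a 3.05-fold rise (limma adjusted p = 3.41e-06). Means of both diet groups were above the highest control, while 4 of 12 fenofibrate and 2 of 11 fish oil arrays lay within the control range. Without control replicates 1, 2 and 9 the Gsta2 differences were 1.20 with fenofibrate and 1.56 with fish oil (limma adjusted p = 4.59e-05 and 5.49e-06). The difference between the diets, -0.35 with a 95% interval of -0.79 to 0.08, did not pass (adjusted p = 0.207). A probe set that the platform assigns to Gsta2, its neighbour Gsta1 and Gm3776 together rose by 1.45 ± 0.23 with fenofibrate and by 1.86 ± 0.24 with fish oil. Its deviations correlated with those of the Gsta2 probe set at 0.95 over 33 arrays, and the parts of Gsta1 and Gsta2 in it cannot be told apart.

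Gsta4 encodes the alpha form that prefers 4-hydroxynonenal, an aldehyde from oxidised lipids. Its log2 level had a low of 9.65, a median of 10.19 and a high of 10.62 in fenofibrate arrays, 9.71, 10.26 and 10.60 in fish oil arrays, and 8.98, 9.81 and 10.19 in control arrays. The groups overlapped, with 6 of 12 fenofibrate and 6 of 11 fish oil arrays above all controls. It rose by 0.36 ± 0.13 with fenofibrate (limma adjusted p = 0.0343) and by 0.45 ± 0.14 with fish oil (adjusted p = 0.0271). These were the weakest calls among the 10 genes. Both calls ended with arrays of consecutive label numbers as a random block (adjusted p = 0.0629 for fenofibrate and 0.0671 for fish oil), with no filter on dim probe sets (0.0604 and 0.0520), and without control replicates 1, 2 and 9 together (0.142 and 0.0905). The fenofibrate call also ended when control replicate 1 (adjusted p = 0.0732), control replicate 2 (0.0882) or fenofibrate replicate 4 (0.0527), 5 (0.0563), 6 (0.0551) or 12 (0.0652) was left out, each p adjusted as before. The fish oil call ended without control replicate 1 (adjusted p = 0.0541), control replicate 2 (0.0620) or fish oil replicate 3 (0.0541).

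Gsta3, an abundant liver form that in mice detoxifies the epoxide of aflatoxin, showed the least change of the class. Its level was 13.62 to 14.03 with a mean of 13.86 in fenofibrate arrays, 13.15 to 14.03 with a mean of 13.72 in fish oil arrays and 13.49 to 14.14 with a mean of 13.93 in controls. The ranges overlapped, with 11 of 12 fenofibrate and 10 of 11 fish oil arrays below the control median. The difference was -0.07 (95% interval -0.24 to 0.10, limma adjusted p = 0.543) for fenofibrate and -0.21 (-0.38 to -0.04, adjusted p = 0.0977) for fish oil. Without control replicate 2 the fish oil difference was -0.26 and passed (adjusted p = 0.0273). The intervals hold no change of the size seen for Gsta2. The other Gsta3 probe set gave -0.04 with fenofibrate and -0.31 with fish oil, and neither passed. Without control replicates 1, 2 and 9 both probe sets passed with fish oil. Their differences were then -0.29 and -0.41 (limma adjusted p = 0.0160 and 0.0232).

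The mu class was divided: with fenofibrate against control Gstm4 and Gstm1 rose, Gstm2 fell and Gstm3 did not pass, and with fish oil against control Gstm1 rose, Gstm2 fell and Gstm3 and Gstm4 did not pass. Mu-class enzymes act on epoxides and aromatic electrophiles. Gstm4 had log2 levels of 9.72 at the lowest, 10.11 at the median and 10.67 at the highest in fenofibrate arrays. The same values were 8.73, 9.04 and 9.44 in fish oil arrays and 8.47, 8.91 and 9.27 in control arrays. Every fenofibrate array lay above every fish oil and every control array, while fish oil and control overlapped. With means of 10.10 ± 0.25 under fenofibrate and 8.88 ± 0.25 in controls (SD), the difference was 1.22 ± 0.11, or 2.32-fold (limma adjusted p = 4.62e-11). Between fenofibrate and fish oil it was 0.96 ± 0.10, or 1.94-fold (limma adjusted p = 5.39e-09). For fish oil against control Gstm4 differed by 0.26 (95% interval 0.04 to 0.48, adjusted p = 0.125).

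Gstm2 moved the other way. Its level ran from 8.95 through a median of 9.47 to 10.07 in fenofibrate arrays, from 8.35 through 8.87 to 9.33 in fish oil arrays, and from 9.44 through 10.04 to 10.67 in control arrays. All 11 fish oil arrays lay below the lowest control, whereas 6 of 12 fenofibrate arrays did. Gstm2 fell by 1.21 ± 0.15 with fish oil, 2.31-fold (limma adjusted p = 3.46e-07), and by 0.56 ± 0.14 with fenofibrate, 1.47-fold (adjusted p = 0.00250). It was therefore 0.65 ± 0.14 higher under fenofibrate than under fish oil (limma adjusted p = 0.000436), with all 12 fenofibrate arrays above the fish oil median.

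Gstm1, the main mu form of mouse liver, rose slightly with both diets. Levels were 13.14 to 13.69 (median 13.50) in fenofibrate arrays, 13.28 to 13.73 (median 13.56) in fish oil arrays and 12.57 to 13.52 (median 13.26) in controls. The groups overlapped, and the control range was widened at its low end by control replicate 2. The rise was 0.27 ± 0.08 with fenofibrate (limma adjusted p = 0.0123) and 0.32 ± 0.09 with fish oil (adjusted p = 0.0110), or 1.20-fold and 1.25-fold. Another pair of Gstm1 probe sets rose with both diets too, by 0.26 and 0.36 with fenofibrate and 0.27 and 0.33 with fish oil. Their fish oil calls ended with consecutive label numbers as a random block (adjusted p = 0.0581 and 0.0849). For the probe set with 0.36 and 0.33, the fish oil call also ended without control replicates 1, 2 and 9 (0.0770), and the fenofibrate call without arrays whose label number has the suffix A (0.0556). The last probe set of the gene stayed below the filter, with means of 3.51 in fenofibrate, 3.47 in fish oil and 3.20 in control arrays, and was not tested.

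Gstm3 had wide spreads in every group. Its brighter probe set ran from 8.06 to 9.87 (median 9.19) in fenofibrate arrays, from 7.21 to 9.13 (median 8.60) in fish oil arrays and from 8.28 to 9.69 (median 9.16) in control arrays. The differences were -0.12 ± 0.22 for fenofibrate (limma adjusted p = 0.708), -0.59 ± 0.22 for fish oil (adjusted p = 0.0845) and 0.47 ± 0.21 between the diets (adjusted p = 0.0860). None passed, and the intervals are wide: -0.57 to 0.33, -1.05 to -0.14 and 0.04 to 0.91. Leaving out control replicate 2 gave a fish oil difference of -0.69 that passed (adjusted p = 0.0419). Leaving out fenofibrate replicate 1 or 3 gave 0.56 between the diets in each case, which passed (adjusted p = 0.0373 and 0.0369). A dimmer Gstm3 probe set was 0.70 ± 0.19 higher under fenofibrate than under fish oil (adjusted p = 0.00347), with a difference of 0.36 for fenofibrate and -0.34 for fish oil against control that did not pass.

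**Figure D2:**
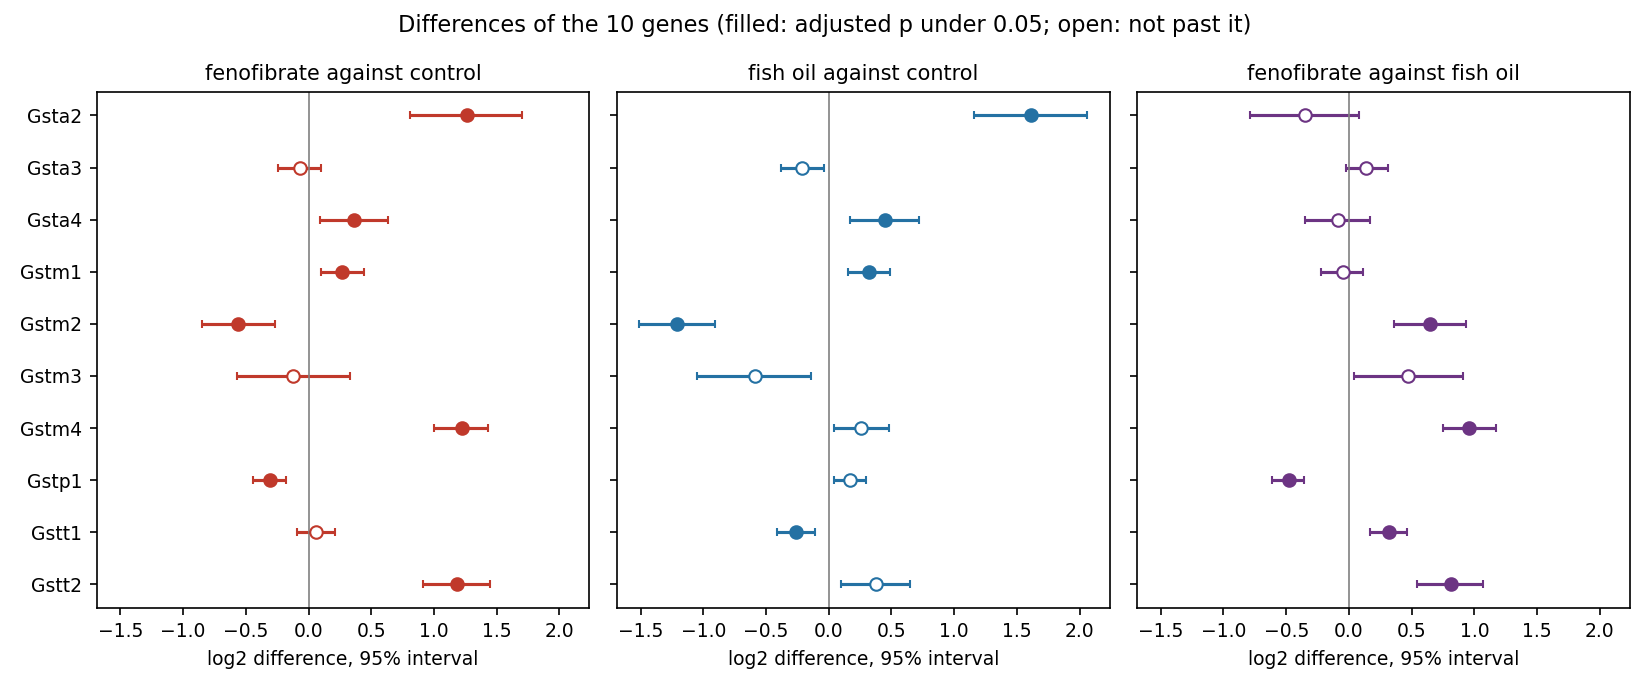
Log2 differences of the 10 transferase genes with 95% intervals, in 3 panels for fenofibrate against control, fish oil against control and fenofibrate against fish oil; filled points passed an adjusted p of 0.05 and open points did not. Gsta2 stands at 1.26 with fenofibrate and 1.61 with fish oil, Gstm4 at 1.22 and 0.26, and Gstm2 at -0.56 and -1.21.

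Gstp1 was the 1 member of the 10 that was lower under fenofibrate than in both other groups. It encodes the pi form, which in mice is more abundant in male than in female liver. Levels ran from 13.72 through a median of 14.31 to 14.52 in fenofibrate arrays, from 14.62 through 14.74 to 14.86 in fish oil arrays, and from 14.35 through 14.60 to 14.69 in control arrays. All 12 fenofibrate arrays lay below all 11 fish oil arrays, and 8 of the 12 lay below every control. It fell by 0.31 ± 0.06 with fenofibrate, 1.24-fold (limma adjusted p = 0.000186), and stood 1.40-fold lower than with fish oil, a difference of -0.48 ± 0.06 (limma adjusted p = 1.24e-07). With fish oil against control it differed by 0.17 ± 0.06 (adjusted p = 0.0768), and by 0.17 with an adjusted p of 0.0140 when fenofibrate replicate 11, the lowest array, was left out of the shared model. Its values lie near the top of the scale, which ends at 15.6, where differences can be compressed. The near-identical neighbour Gstp2 has no probe set of its own here.

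In the theta class both genes were higher under fenofibrate than under fish oil. Theta enzymes act on small halogenated compounds and on sulfate esters. Gstt2 ran from 11.42 through a median of 11.83 to 12.01 in fenofibrate arrays, from 10.67 through 10.96 to 11.26 in fish oil arrays and from 9.36 through 10.80 to 10.99 in control arrays. All 12 fenofibrate arrays were above all arrays of both other groups. The lowest control value belonged to replicate 2. Gstt2 rose by 1.18 ± 0.13 with fenofibrate against control, 2.27-fold (limma adjusted p = 1.11e-08), and by 0.97 (adjusted p = 1.26e-11) without control replicates 1, 2 and 9. Against fish oil it was 0.81 ± 0.13 higher, 1.75-fold (limma adjusted p = 7.56e-06). Fish oil against control gave 0.38 ± 0.14 (adjusted p = 0.0662). That difference passed without control replicate 9 (0.42, adjusted p = 0.0433) and stood at 0.17 (adjusted p = 0.166) without the 3 control arrays.

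Gstt1 had a narrower range. Levels were 12.03 to 12.41 (median 12.28) in fenofibrate arrays, 11.63 to 12.19 (median 11.97) in fish oil arrays and 11.78 to 12.42 (median 12.28) in controls. Fenofibrate and control arrays overlapped throughout, and all 11 fish oil arrays lay below the control median. Fenofibrate against control gave 0.06 (95% interval -0.09 to 0.21, limma adjusted p = 0.538). With fish oil Gstt1 fell by 0.26 ± 0.07, 1.19-fold (limma adjusted p = 0.0197), a call that ended when the fit held only these 2 groups (adjusted p = 0.0536). It was 0.32 ± 0.07 higher under fenofibrate than under fish oil (adjusted p = 0.000604).

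The positions of the genes put these differences side by side. On chromosome 3 the mu genes follow one another as Gstm5, Gstm7, Gstm6, Gstm3, Gstm2, Gstm1 and Gstm4 in the GRCm38.p6 annotation. Gstm6 and Gstt3 were named for their place in a cluster after their values were seen. With fish oil against control, the run from Gstm5 to Gstm2 had only negative differences: Gstm5 fell by 0.33, Gstm7 by 0.44, Gstm6 by 0.39 and Gstm2 by 1.21, while Gstm3 at -0.59 did not pass. The neighbours at the other end, Gstm1 and Gstm4, had positive differences. With fenofibrate, Gstm5 rose by 0.28 ± 0.07 (limma adjusted p = 0.000934), Gstm7 and Gstm6 did not pass at -0.08 and -0.16, and Gstm2 and Gstm4, separated by Gstm1, differed in sign. On chromosome 10 the theta genes lie as Gstt3, Gstt1, Gstt4 and Gstt2. Gstt3 was 1.09 ± 0.20 higher under fenofibrate than under fish oil (limma adjusted p = 6.50e-05), as Gstt1 and Gstt2 also were. Its rise of 0.54 with fenofibrate against control (adjusted p = 0.0404) ended without control replicate 1 (0.41, adjusted p = 0.0979) or replicate 2 (0.45, adjusted p = 0.0899), among others. On chromosome 19, Gstp3 fell by 1.00 ± 0.15 with fenofibrate and by 1.20 ± 0.15 with fish oil (limma adjusted p = 2.58e-06 and 8.07e-07), beside the -0.31 and 0.17 of Gstp1. Related sequences within a cluster can share probes, and the part of this in the pattern was not tested.

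**Figure D3:**
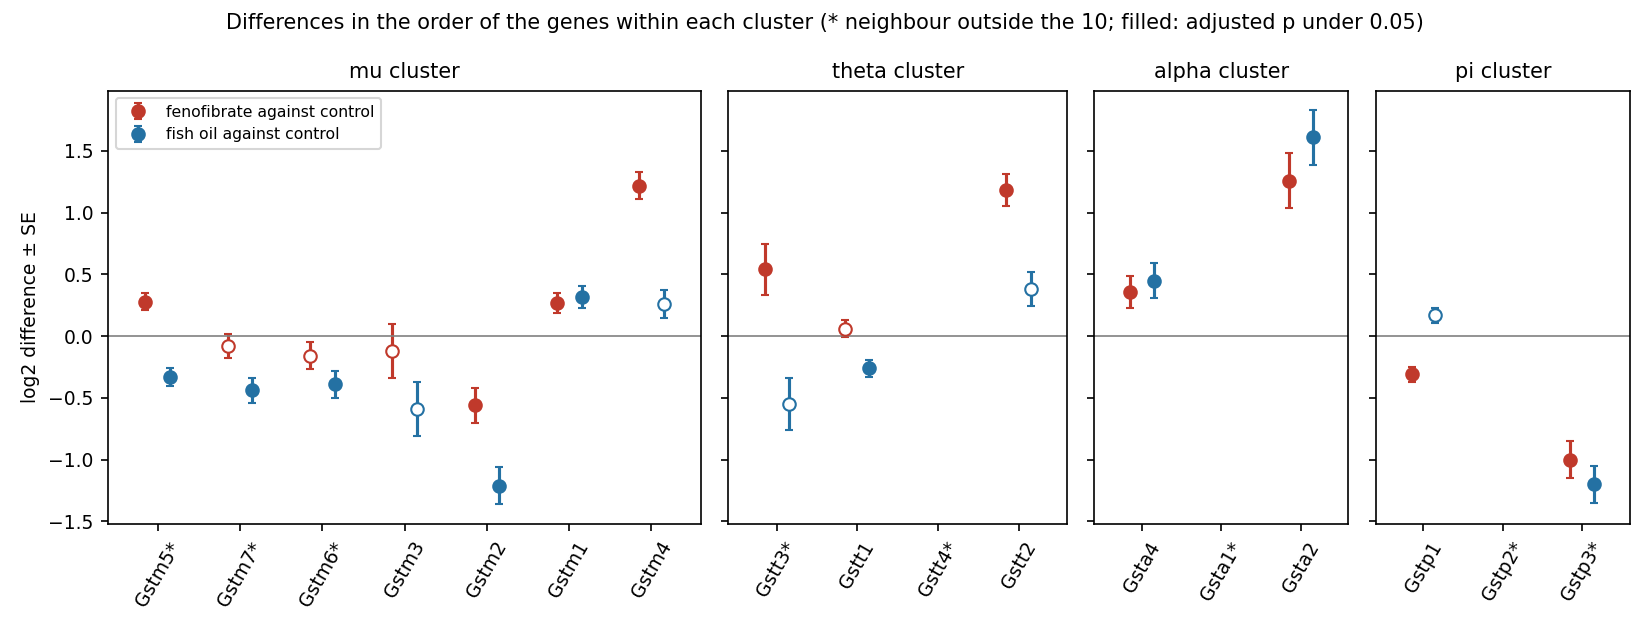
Log2 differences ± SE of transferase genes in the order of the genes within 4 clusters (mu on chromosome 3, theta on 10, alpha on 9, pi on 19), for fenofibrate against control and fish oil against control (filled where an adjusted p of 0.05 was passed); a star marks genes outside the 10, and Gstt4, Gsta1 and Gstp2 had no probe set of their own past the filter. In the mu cluster the fish oil points are below 0 from Gstm5 to Gstm2 and above 0 at Gstm1 and Gstm4.

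Among 20 other listed glutathione transferases, 11 were measured. With fenofibrate against control 6 rose and 1 fell, and with fish oil against control 2 rose and 4 fell. The medians were 0.24 and -0.09. Of all genes, 21.5% were higher and 18.3% lower with fenofibrate, and 6.97% higher and 6.36% lower with fish oil. Without control replicates 1, 2 and 9 the fenofibrate counts were 4 and 3, and the fish oil counts 2 and 5. In that setting 37.8% and 13.1% of all probe sets passed in either direction. Gstk1, a form of mitochondria and peroxisomes, rose by 0.68 ± 0.07 with fenofibrate and by 0.22 ± 0.07 with fish oil (limma adjusted p = 1.30e-09 and 0.0379). Mgst3, a membrane-bound form, rose by 1.30 ± 0.24 with fenofibrate (adjusted p = 7.55e-05) and differed by 0.42 ± 0.25 with fish oil, which did not pass (adjusted p = 0.317). Gsto1, an omega-class thiol transferase, rose by 0.24 ± 0.10 with fenofibrate and by 0.50 ± 0.10 with fish oil (limma adjusted p = 0.0461 and 0.000523). The fenofibrate call of Gsto1 and the fish oil call of Gstk1 ended without control replicate 1 (adjusted p = 0.0961 and 0.0517), among other single arrays.

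Genes that make and recycle glutathione were divided. Of 13 measured from a list of 17, 5 rose and 4 fell with fenofibrate against control, beside 21.5% higher and 18.3% lower over all genes. With fish oil against control 4 rose and 1 fell, beside 6.97% higher and 6.36% lower over all genes. The medians of the list were 0.06 and 0.09. Gclc and Gclm encode the subunits of the rate-limiting enzyme of glutathione synthesis. Gclc rose by 0.45 ± 0.15 with fenofibrate and by 0.65 ± 0.15 with fish oil (limma adjusted p = 0.0193 and 0.00381), and the difference of -0.21 between the diets did not pass (adjusted p = 0.291). Gclm rose by 0.43 ± 0.08 with fish oil (adjusted p = 0.000157) and differed by 0.06 with fenofibrate, which did not pass. Cbs and Cth, the enzymes of cysteine formation from homocysteine, fell by 0.66 ± 0.08 and 0.51 ± 0.09 with fenofibrate (limma adjusted p = 7.68e-08 and 3.90e-05). Ggct, which breaks down gamma-glutamyl peptides, had mean log2 levels of 8.10 with fenofibrate, 6.61 with fish oil and 7.30 in controls. It rose by 0.80 ± 0.13 with fenofibrate (limma adjusted p = 8.65e-06) and fell by 0.69 ± 0.13 with fish oil (adjusted p = 0.000431), and the diets differed by 1.49 ± 0.13 (adjusted p = 2.63e-11).

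Of 10 measured genes from a list of 12 for conjugate export and mercapturate handling, 4 rose and 5 fell with fenofibrate against control, and 3 rose and 2 fell with fish oil against control. The 4 counted as higher with fenofibrate include Abcc4, an export pump that passed the filter on dim probe sets through the fenofibrate group. Its place in the count is therefore no evidence of a rise. The others of the 4 were export pumps as well. Those that fell were Nat8, Nat8f1 and Nat8f2 of the acetyltransferase family, and the aminoacylases Acy1 and Acy3, which remove acetyl groups. Nat8, Acy1 and Acy3 were named after their values were seen. Beside these counts, 21.5% of all genes were higher and 18.3% lower with fenofibrate, and 6.97% higher and 6.36% lower with fish oil. Abcc3, a pump for glutathione and glucuronide conjugates at the blood side of the hepatocyte, rose by 1.53 ± 0.16 with fish oil, and Abcg2, a pump at the bile canaliculus, by 1.10 ± 0.11 with fenofibrate and 0.81 ± 0.11 with fish oil (limma adjusted p = 3.38e-08, 1.03e-09 and 3.41e-06). Abcc2, the canalicular pump for glutathione conjugates, rose by 0.29 ± 0.05 with fish oil (adjusted p = 8.88e-05). Nat8f1 and Nat8f2, of the family of the mercapturate-forming acetyltransferase Nat8, fell by 0.93 ± 0.08 and 0.71 ± 0.08 with fenofibrate (limma adjusted p = 3.53e-11 and 4.82e-09).

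Of 9 measured NRF2 targets other than transferases, listed as 12, 6 rose with fenofibrate and 3 with fish oil. The medians were 0.83 and 0.26. Ephx1, the microsomal epoxide hydrolase, rose by 1.18 ± 0.13 and Aox1, an aldehyde oxidase, by 1.14 ± 0.13 with fish oil (limma adjusted p = 3.57e-08 and 1.26e-07). Srxn1, a sulfiredoxin, rose by 0.95 ± 0.14 with fenofibrate (adjusted p = 2.44e-06). Nqo1, a quinone reductase, is counted among the 6, but it passed the filter of 4 through the fenofibrate group. It ran from 3.57 to 4.59 in fenofibrate arrays, from 2.95 to 3.89 in fish oil arrays and from 2.80 to 3.90 in control arrays. Its place in the count is no evidence of a rise, and no test of it is given in the text. Hmox1 and Txnrd1, also of this list, did not pass, at 0.04 and 0.06 with fenofibrate and 0.26 and 0.07 with fish oil. Of 11 measured receptors and factors of transferase genes, 4 rose and 3 fell with fenofibrate, and 1 rose with fish oil. The 1 that rose with fish oil was Nr1i3, the receptor CAR, at 0.67 ± 0.16 (limma adjusted p = 0.00447), and Hnf4a fell by 0.42 ± 0.06 with fenofibrate (adjusted p = 5.83e-07). Nr1i2, the receptor PXR, rose by 0.46 ± 0.12 and Keap1, the repressor of NRF2, by 0.23 ± 0.05, and Cebpa fell by 0.32 ± 0.08 with fenofibrate (limma adjusted p = 0.00247, 0.000676 and 0.00110). Of 4 measured CAR and PXR targets, 3 rose with fenofibrate and 1 with fish oil. Cyp3a11 rose by 0.24 ± 0.05 with fenofibrate and 0.21 ± 0.05 with fish oil (limma adjusted p = 0.000589 and 0.00668), and Cyp3a13 by 0.32 ± 0.10 with fenofibrate (adjusted p = 0.00963). Cyp2b9 ran from 7.53 to 11.89 in fenofibrate arrays, from 1.69 to 8.70 in fish oil arrays and from 1.95 to 9.69 in control arrays, and its fitted difference of 7.33 for fenofibrate against control is set against a group whose mean, 2.95, lay below the filter. Of 7 measured sex-biased liver genes, a list that shares Cyp2b9, 2 rose and 3 fell with fenofibrate and 2 rose with fish oil. Hsd3b5 ran from 2.74 to 8.46 in fenofibrate arrays, from 10.70 to 12.92 in fish oil arrays and from 5.34 to 12.81 in control arrays, and it fell by 7.19 ± 0.68 with fenofibrate (limma adjusted p = 2.92e-10). Slco1a1, an uptake carrier, was also lower, at -2.50 ± 0.21, and Cyp4a12a rose by 1.96 ± 0.21 with fenofibrate and 1.36 ± 0.22 with fish oil (limma adjusted p = 1.70e-11, 5.44e-09 and 3.05e-05). Cyp2d9 rose by 0.40 ± 0.09 with fish oil (adjusted p = 0.00238). Beside the counts of these lists, 21.5% of all genes were higher and 18.3% lower with fenofibrate, and 6.97% higher and 6.36% lower with fish oil. All these lists were chosen with earlier results of these data known, so their counts are descriptions.

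**Figure D4:**
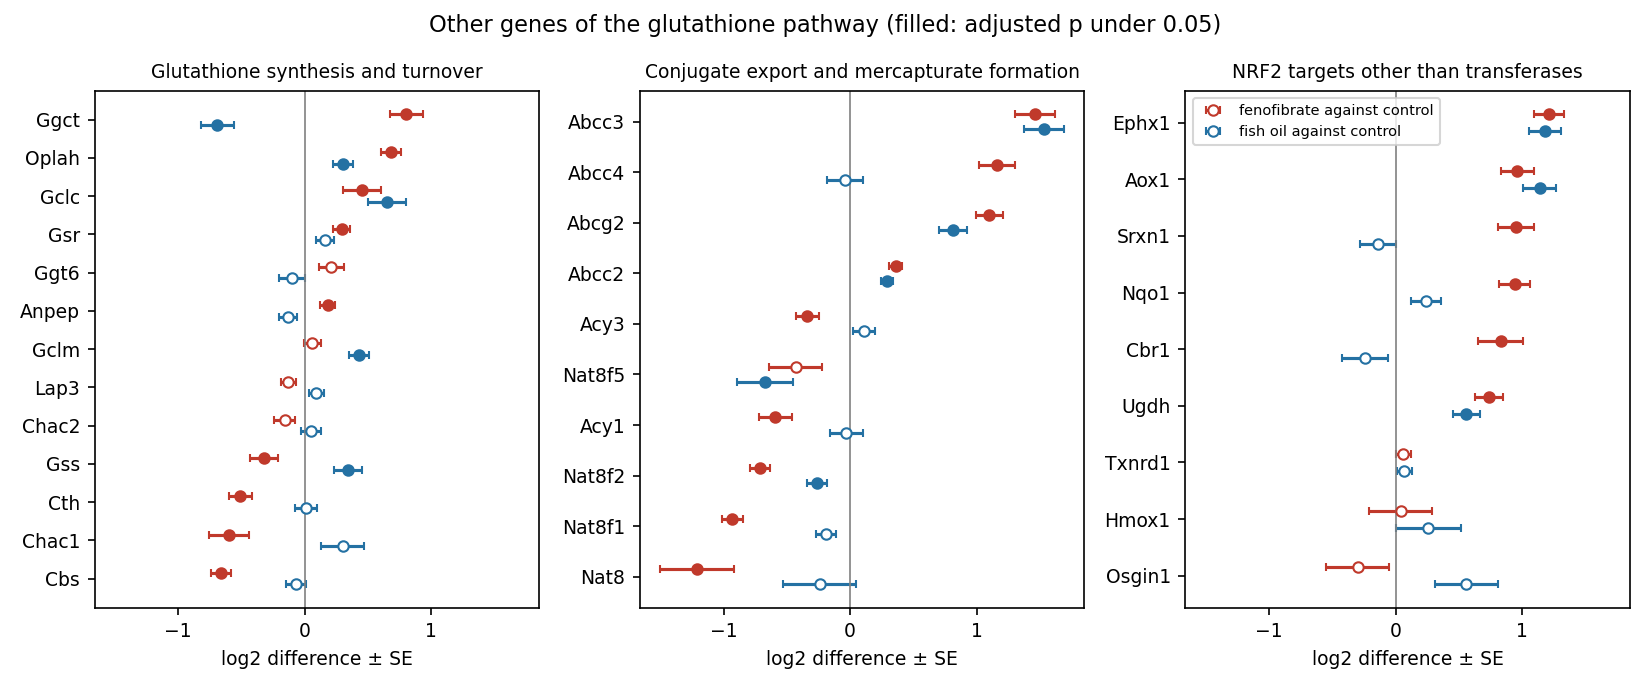
Log2 differences ± SE of genes of glutathione synthesis and turnover (13), conjugate export and mercapturate formation (10) and NRF2 targets other than transferases (9), for fenofibrate against control and fish oil against control; filled points passed an adjusted p of 0.05, and Nqo1 and Abcc4 passed the filter on dim probe sets through the fenofibrate group. The points of Nqo1 and Abcc4 are therefore not read as differences. Abcc3 and Ephx1 lie above 1 with both diets, and Ggct lies at 0.80 with fenofibrate and -0.69 with fish oil.

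Within groups, the genes varied together in part. As deviations from group means over 33 arrays, Gsta2 and Gsta4 correlated at 0.77, Gstm1 and Gstm3 at 0.78 and Gstt1 and Gstt2 at 0.76, whereas Gstp1 correlated with the other 9 at -0.37 to 0.12. These points share arrays and normalization, and no p is given. In the fenofibrate group, replicate 1 was the lowest array for 8 of the 14 probe sets, and in the fish oil group replicate 9 for 9 of them. The gene outside the 10 most like Gstt2 by this measure was Ces1d, a carboxylesterase, at 0.88, and 0.66 without the 2 arrays farthest from the median. For Gstm4 it was Coq8a at 0.71 (0.61 without 2 arrays), for Gsta2 Prpf19 at 0.79 (0.75), and for Gstp1 Sdr9c7 at 0.82 (0.61).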

How the data were processed

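Liver RNA of 33 mice was measured on 1 array each, and groups follow the sample titles. The deposited values are log2 expression, which the authors computed in GCRMA 2.24.1 according to the submitters' processing notes; the chip definition is not given in the sources used here. GCRMA models background from probe sequences and equalises the arrays' distributions. How far these steps changed differences of dim probe sets was not tested. Array data have no sequencing depth, so the number of arrays limits the precision.

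Control spots were left out, and 17162 probe sets at or over a log2 of 4 on 10 or more arrays were kept. A linear model per probe set over the 3 groups was fitted with limma 3.58.1 (statmod 1.5.0, R 4.3.3), two-sided, with Benjamini-Hochberg adjustment over all 17162. The brightest probe set with a single symbol stood for a gene. At an unadjusted p under 0.05, 7698, 4188 and 7516 probe sets passed for fenofibrate against control, fish oil against control and fenofibrate against fish oil. Simulated data held 17162 probe sets with independent normal noise, and 200 of them were shifted in 1 group. Of the 50 shifted by 0.5, the fit recovered 78.0%, 72.0% and 84.0% with their sign in those comparisons. In the real data 36.6%, 11.6% and 34.5% of probe sets were called, which makes the adjustment less strict, so recovery there can differ. Figures used matplotlib 3.10.9.

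All 10 members were named, and genes of the other lists were taken from the up to 4 called ones per list and comparison with the smallest adjusted p, not all of which are printed; per class the most similar genes were added, and exceptions are stated. Members and lists were chosen with earlier results of these data known. Alternatives changed the filter, centring, probe set, variance model, arrays, weights and blocks. Replicate numbers gave no clear pairing: same-numbered arrays of different groups correlated at a median of 0.02, beside -0.01 for differently numbered ones. Of the same-numbered pairs 11 of 31 exceeded 0.1, and of the others 84 of 331. Within groups, arrays of consecutive label numbers correlated at a median of 0.10, beside -0.14 for other pairs. As a random block they had a consensus correlation of 0.22, whereas the main p-values treat arrays as independent.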

Additional observations from a re-analysis of the deposited data

Results flagged for a closer look

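Gstm1 in control replicate 2 stood apart from the other 9 control arrays on 2 of its probe sets. On the brighter one its log2 level was 12.57, and the next lowest control had 13.09, a gap of 0.55 of the group's range. On the other it was 12.67, with 13.04 next and a gap of 0.47 of the range. The critical share for 10 arrays is 0.466. The 2 probe sets measure the same gene and correlate at 0.98, so they count as 1 observation. Of 14 member probe sets examined in the control group, these 2 met the criterion, which chance alone meets in about 1 group in 20. Groups of 11 and 12 arrays were not examined. Without control replicates 1, 2 and 9, the rise of Gstm1 was 0.21 (limma adjusted p = 0.0244) with fenofibrate and 0.26 (adjusted p = 0.0165) with fish oil.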

How the results depend on the processing

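For fenofibrate against control, 6 to 7 of the 10 genes passed under the 12 alternatives and 6 to 7 with single arrays left out, beside 7 as reported; for fish oil against control 4 to 8 and 4 to 6, beside 5; between the diets 5 to 6 and 5 to 6, beside 5. Member probe sets that passed numbered 8 to 9, 5 to 8 and 6 to 7 with single arrays left out. With array weights, 8 genes and 11 probe sets passed for fish oil against control. Over all probe sets 17.1% passed with these weights, beside 11.6% in the main fit. With consecutive label numbers as a random block 4 member probe sets passed in that comparison. The cause of these shifts was not tested. Under that block 30.2%, 7.56% and 28.9% of all probe sets passed in the 3 comparisons, and with no filter 15.4%, 3.71% and 14.6%. The replicate number as a block gave 6, 6 and 5 genes, beside 35.6%, 11.9% and 34.3% of all probe sets. That block ended the Gsta4 call for fenofibrate (limma adjusted p = 0.0873) and added Gstt2 for fish oil (0.0466). Of 360 member results under these alternatives, 337 kept direction and side of the threshold, 10 no longer passed, 10 newly passed and 3 changed sign: Gstt1 with fenofibrate was -0.02 with array weights and -0.03 without control replicates 1, 2 and 9, and Gstm3 with fenofibrate was 0.12 as a mean of its probe sets. None of these 3 values passed. An alternative without the 3 controls was added for the other lists after the data were seen. In it 2 receptors and factors and 2 CAR and PXR targets passed for fish oil, beside 1 each with all arrays. Over all probe sets 13.1% passed in that setting, beside 11.6% with all arrays. Fits with 1 value per gene give no count of probe sets. In the simulation of fish oil against control, which shifted only 200 probe sets, 72.0% of those shifted by 0.5 were recovered. That share need not hold in the real data, and small changes of single genes can be missed. Related transferase sequences can share probes.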

Other observations

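Genes of neighbouring steps that the results did not name moved in part as well. With fenofibrate against control, Oplah, which recycles 5-oxoproline to glutamate, rose by 0.68 ± 0.08 (limma adjusted p = 5.28e-08), and Ugdh, which makes the sugar donor of glucuronidation, rose by 0.56 ± 0.11 with fish oil (adjusted p = 0.000864). Gss, the glutathione synthetase, was 0.66 ± 0.11 lower under fenofibrate than under fish oil (adjusted p = 9.19e-06). Abcc4, a conjugate pump of the blood side, ran from 4.44 to 5.66 in fenofibrate arrays, from 3.02 to 4.14 in fish oil arrays and from 3.35 to 4.16 in control arrays. It passed the filter of 4 through the fenofibrate group, so no difference or p is given for it in the text.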
